A study of Triticum aestivum with 4 samples.

Results

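The distal long arm of wheat chromosome 4A carried 4882 of the 467343 TaCCA1-7D peaks in the list, or 1.04% of them. Its members were all listed peaks on chromosome 4A with a start at 600 Mb or beyond, a limit that uses position alone and no measured value. The stretch ran 144.5 Mb to the end of the last peak at 744524158 (coordinates of the Ensembl wheat genome), so that 19.6% of the 24859 peaks of 4A lay on 19.4% of its length.

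The peaks came from DAP-seq (DNA affinity purification sequencing), in which sheared naked DNA is exposed to a purified transcription factor on beads and the retained fragments are sequenced. The bait was TaCCA1-7D fused to maltose-binding protein (MBP), and the DNA came from leaves of 2-week-old seedlings of the wheat cultivar Fielder, grown with 16 h light and 8 h dark. The design held 2 CCA1 libraries and 2 input libraries, all of wild-type Fielder DNA. All peaks stand in 1 list with no column per library, and therefore the spread between replicates could not be computed from it and no test was made. The assay contains no chromatin and no wheat cell, and a peak there is a place where the fusion protein retained DNA in the tube.

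CCA1 is a MYB-related transcription factor of the plant circadian clock, which peaks around dawn and in Arabidopsis represses genes of the evening by binding the evening element and related sequences in their promoters. Chromosome 4A is the most rearranged chromosome of bread wheat. Its long arm gained a segment of the long arm of 5A and, later, a segment of the short arm of 7B, and it also went through inversions, so that its distal genes have their homoeologs (the matching copies in the other subgenomes) on the long arms of 5B and 5D and on the short arms of 7A and 7D. The breakpoints between these segments are not marked in the list, and the distal stretch was therefore described by position, without assigning a peak to a segment.

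The kind of sequence used in the study to test TaCCA1-7D binding in vitro is shown by an oligonucleotide and its mutated form, since the genome sequence of the build was not used here and peak sequences are not shown. The oligonucleotide comes from the promoter of TraesCS1D02G226100 on chromosome 1D and is not a member of distal 4A. Both are read 5′ to 3′, and the capitals mark AATATC, the core of the evening element, which was searched on both strands.
DAP-1: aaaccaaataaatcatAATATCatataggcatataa
DAP-1 mutated: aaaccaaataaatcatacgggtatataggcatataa
DAP-1 holds AATATC 1 time and the mutated form 0 times. How often AATATC occurs in the peaks of distal 4A was not analysed here.

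To learn whether the rearranged stretch was as densely covered by TaCCA1-7D peaks as other chromosome regions, peaks were counted per Mb. Distal 4A held 33.8 peaks per Mb (95% Poisson interval 32.8 to 34.7), against 33.3 (32.8 to 33.8) on the rest of 4A. The ends of the group 5 chromosomes, taken over the same length to within 1 Mb, held 32.9 peaks per Mb on 5A, 31.2 on 5B and 33.4 on 5D. The starts of the group 7 chromosomes held 35.0 on 7A, 32.4 on 7B and 34.2 on 7D. Over its whole length, the density of distal 4A thus lay inside the range of the 6 windows of groups 5 and 7. As a ratio, it was 1.01 times that of the rest of 4A (95% interval 0.983 to 1.05), 1.04 times that of the pooled group 5 ends (1.01 to 1.07) and 0.997 times that of the pooled group 7 starts (0.965 to 1.03). These intervals, like those below, cover counting error only, and chromosome regions are not replicates, so no test was made.

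The even mean hid a steep profile inside the stretch. Up to 710 Mb, a limit chosen after the bins had been seen, it held 36.6 peaks per Mb (95% interval 35.5 to 37.7). That was above each of the 6 windows of groups 5 and 7 at their full length, the highest being 35.0 at the start of 7A. In the 11 bins of 10 Mb from 600 to 710 Mb the density was between 32.6 and 40.6 peaks per Mb, with the highest value at 690 to 700 Mb (406 peaks) and the next at 640 to 650 Mb (402 peaks, 40.2 per Mb). From 710 Mb it was 30.5 (305 peaks), then 24.9 at 720 to 730 Mb (249 peaks) and 19.1 at 730 to 740 Mb (191 peaks). The last 4.52 Mb held 114 peaks, or 25.2 per Mb. The sparsest of these bins, with a 95% interval of 16.5 to 22.0 peaks per Mb, held 0.470 times the peaks of the densest. On the rest of 4A the 60 bins ran from 20.5 to 38.5 peaks per Mb with a median of 33.6, so 3 of the 14 full bins of distal 4A lay above the highest of these bins and 1 lay below the lowest.

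**Figure D1:**
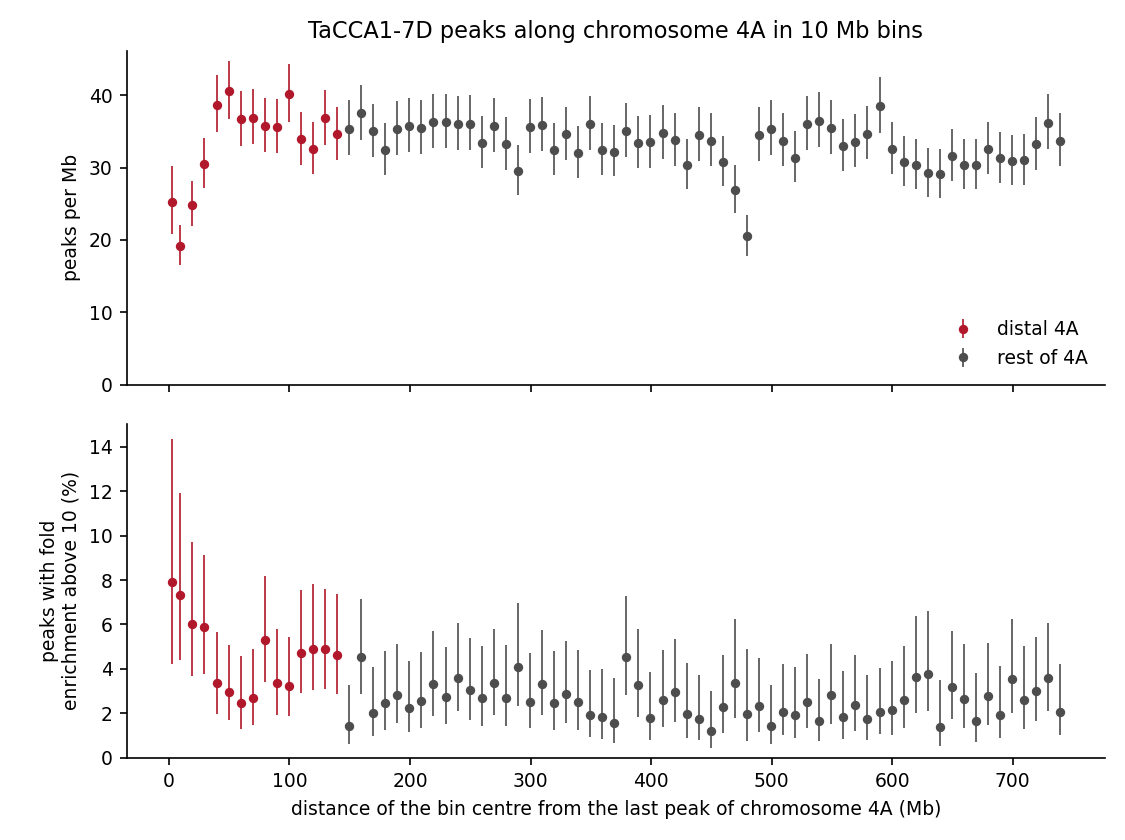
Peaks per Mb (top) and the percent of peaks with a fold enrichment above 10 (bottom) in 10 Mb bins of chromosome 4A, against the distance of the bin centre from the last peak in Mb, with distal 4A in red and the rest of 4A in grey. Bars are 95% intervals (Poisson on top, Wilson below) for counting error, and the density of distal 4A is 19.1 peaks per Mb in its sparsest full bin, where 7.33% of the peaks are strong.

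Strong peaks were read from the fold enrichment, as the authors' peak caller gave it. It is the ratio of the tags stacked at the summit (the pileup) to the local background, with 1 added to both. The list was filtered by the authors at a fold enrichment above 5, and all 4882 members passed, the lowest at 5.01. The median fold enrichment was 6.34 in distal 4A (quartiles 5.59 and 7.40), against 6.17 on the rest of 4A (5.55 and 7.27), and it was 6.18, 6.26 and 6.23 at the ends of 5A, 5B and 5D and 6.18, 6.27 and 6.18 at the starts of 7A, 7B and 7D. The difference was 0.17 to the rest of 4A (95% interval 0.11 to 0.26), 0.12 to the group 5 ends (0.048 to 0.21) and 0.13 to the group 7 starts (0.050 to 0.22). When distal 4A was ended at 710 Mb, the difference was 0.11 to the rest of 4A (0.054 to 0.19), and the intervals of those to the group 5 ends (0.063, -0.0089 to 0.15) and the group 7 starts (0.069, -0.0069 to 0.16) included 0. The windows of both groups were not shortened for this.

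A fold enrichment above 10, called strong here, was found for 210 of the 4882 members, or 4.30% (95% Wilson interval 3.77 to 4.91%). In the whole list 3.02% of the peaks passed this value. On the rest of 4A it was 512 of 19977 peaks, or 2.56% (2.35 to 2.79%), an interval that does not overlap that of distal 4A. At the ends of 5A, 5B and 5D it was 3.25%, 3.52% and 3.02%, and at the starts of 7A, 7B and 7D 3.31%, 3.34% and 3.03%. The share in distal 4A was 1.74 percentage points above the rest of 4A (95% interval 1.16 to 2.38), 1.05 above the group 5 ends (0.429 to 1.71) and 1.08 above the group 7 starts (0.465 to 1.74). Per Mb, distal 4A held 1.45 strong peaks against 0.853 on the rest of 4A, 1.06 at the group 5 ends and 1.09 at the group 7 starts. Distal 4A thus carried 29.1% of the 722 strong peaks of its chromosome.

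The strong peaks were not spread evenly over the stretch. Between 600 and 640 Mb the share was 4.62%, 4.89%, 4.91% and 4.72% in the successive 10 Mb bins, against 1.41% (5 of 354 peaks) in the bin from 590 to 600 Mb just outside. From 640 to 710 Mb the bins gave 3.23%, 3.37%, 5.32%, 2.71%, 2.45%, 2.96% and 3.36%, and from 710 Mb 5.90%, 6.02%, 7.33% and 7.89%. In 9 of the 15 bins the lower end of the interval lay above 2.79%, the upper end for the rest of 4A, which was so in 2 of its own 60 bins. Taken over 3 zones chosen after these values had been seen, the share was 4.79% from 600 to 640 Mb (95% interval 3.78 to 6.04%), 3.33% from 640 to 710 Mb (2.71 to 4.08%) and 6.52% from 710 Mb on (5.05 to 8.37%).

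Per Mb, the last zone differed from the first in its other peaks rather than in its strong ones. The middle zone had the fewest strong peaks per Mb and the most other peaks. Strong peaks numbered 1.65, 1.26 and 1.62 per Mb in these zones, with overlapping intervals (1.28 to 2.10, 1.01 to 1.55 and 1.23 to 2.11). Peaks with a fold enrichment of 10 or less numbered 32.8, 36.5 and 23.3 per Mb. Across the 14 full bins the density and the strong share had a Pearson correlation of -0.85 (Spearman -0.81), against 0.08 (Spearman 0.10) across the 60 bins of the rest of 4A. The 2 measures share the peak count of a bin, and bins are neighbours on a single molecule. Leaving out the sparse end from 710 Mb on, the strong share of distal 4A was 3.83% (3.28 to 4.47%) and its difference to the rest of 4A was 1.27 percentage points (0.669 to 1.94). The intervals of the differences to the group 5 ends (0.572, -0.058 to 1.27) and to the group 7 starts (0.604, -0.022 to 1.3) then included 0. In this comparison the group 5 and group 7 windows kept their full length, with their own tips.

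Set against the windows of groups 5 and 7 by distance from the chromosome end, distal 4A was sparse and rich in strong peaks at its tip. The terminal 34.5 Mb, from 710 Mb on, held 859 peaks or 24.9 per Mb, against 27, 31.5 and 32.8 per Mb at the ends of 5A, 5B and 5D and 33.7, 34.8 and 35.9 at the starts of 7A, 7B and 7D over the same length. Strong peaks were 6.52% there, against 2.79%, 4.04% and 3.18% on the group 5 chromosomes and 4.73%, 2.75% and 2.67% on the group 7 chromosomes. The outermost 10 Mb of 5A was sparser still, with 174 peaks or 17.4 per Mb, against 199 or 19.9 per Mb for 4A. Its strong share was 4.02% against 9.05%, given without intervals. Outside these groups, the outermost 10 Mb at the ends of 7B and 1D had 17.4 and 6.5 peaks per Mb. Of these peaks 12.6% and 12.3% were strong, while the end of 2A had 20.3 per Mb and 2.96%. No segment of 4A was aligned to its counterpart, so that equal distances from the end need not be homoeologous positions. The length of 34.5 Mb was chosen after the bins of 4A had been seen, which favours a contrast at its tip.

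**Figure D2:**
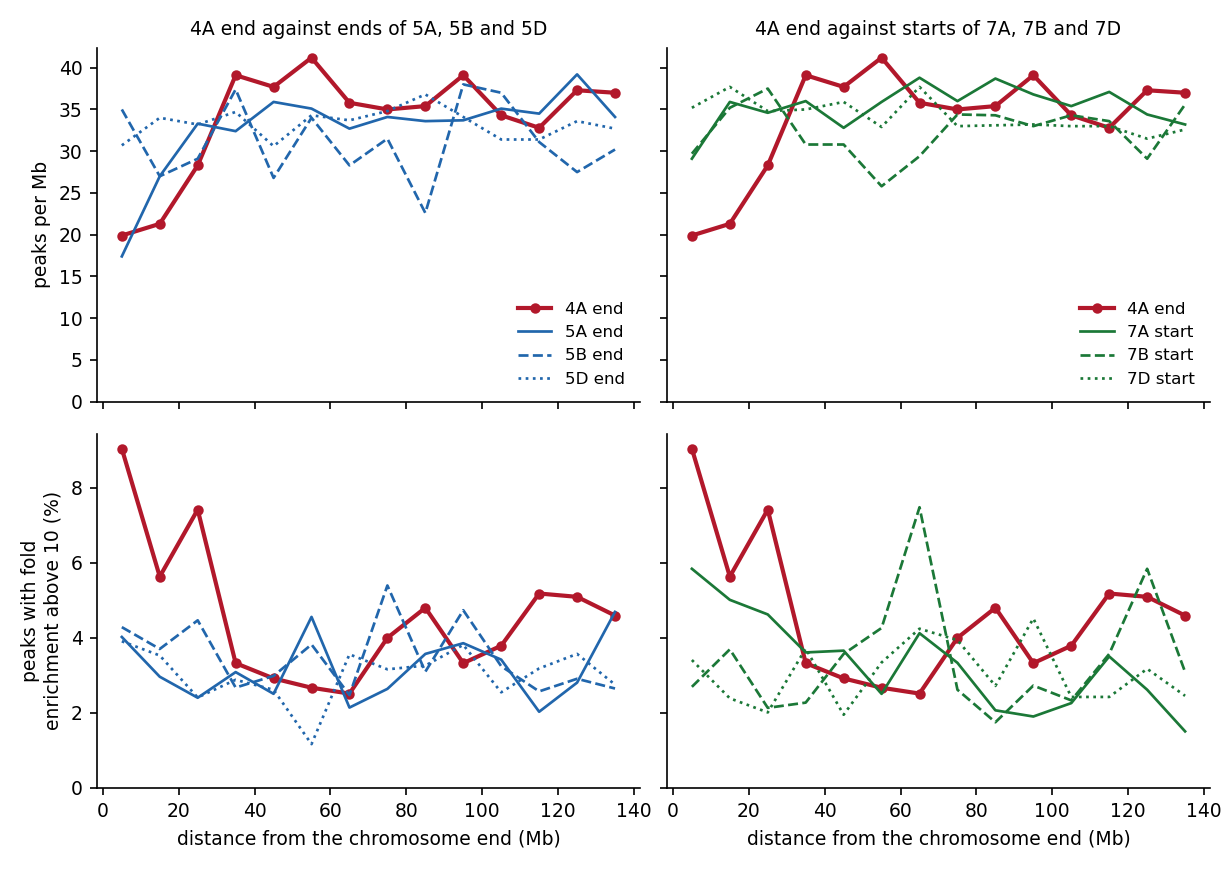
Peaks per Mb (top) and the percent of peaks with a fold enrichment above 10 (bottom) by distance from the chromosome end in Mb, in 10 Mb bins, for the end of 4A (red, circles) with the ends of 5A, 5B and 5D (left, blue) and the starts of 7A, 7B and 7D (right, green). The outermost bin of 4A has 19.9 peaks per Mb, of which 9.05% are strong, and no error bars are drawn.

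Among 42 windows, both ends of all 21 chromosomes at about the length of the distal stretch, distal 4A had the highest median fold enrichment (6.34, against 6.17 to 6.32 in the other 41) and the most strong peaks per Mb (1.45, against 0.854 to 1.42). Its strong share of 4.30% was second to the end of 7B, which had 4.40%, and was followed by the ends of 1B (4.14%) and 3B (4.03%). Its density was the 10th highest. Over the terminal 34.5 Mb the end of 7B was again nearest to 4A, as the sparsest of all 42 windows at 23.5 peaks per Mb with 8.02% strong peaks, and the end of 4A was second in both. These ranks describe the list and were not tested. Those over 34.5 Mb use a length chosen after the bins of 4A had been seen, which favours an extreme rank of 4A.

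**Figure D3:**
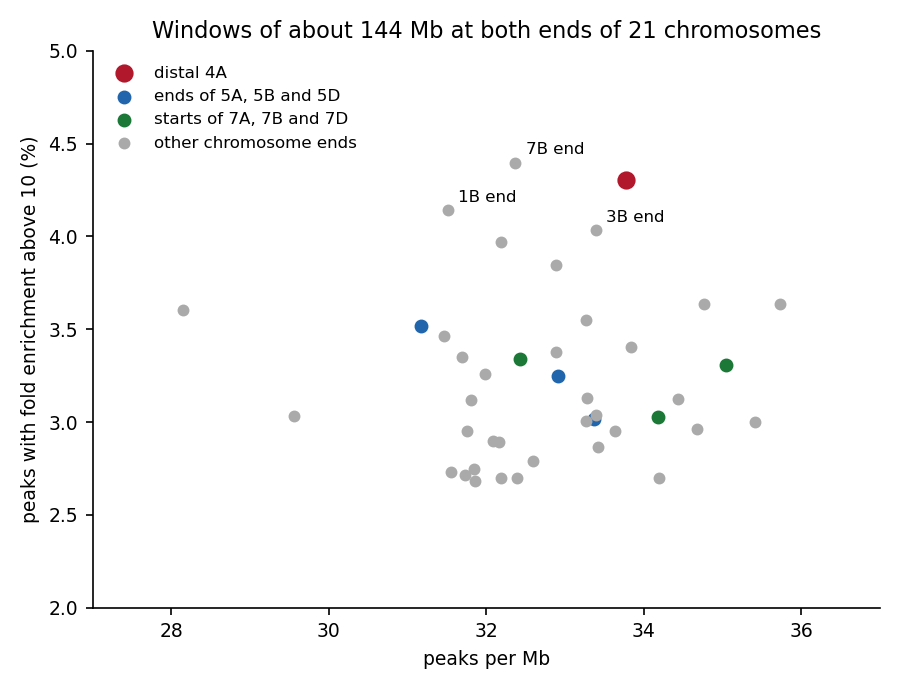
Percent of peaks with a fold enrichment above 10 against peaks per Mb for 42 windows of about equal length at both ends of the 21 chromosomes, 1 point a window, with axes that do not start at 0. Distal 4A (red) lies at 33.8 peaks per Mb and 4.30%, above the 6 windows of groups 5 (blue) and 7 (green), and only the end of 7B has a larger strong share.

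From both statistics of the caller (fold enrichment and p-value), the pileup and the local background at each summit were worked back. Since it is solved from the fold enrichment, and no strong member held under 16 tags, the pileup is not a measure apart from the strong share. The sources do not say which tags make up the background, so it cannot be taken as a level independent of the peaks. The median pileup was 12 tags in distal 4A (quartiles 10 and 16), against 12 (10 and 15) on the rest of 4A. The pileup reached 20 tags in 528 members, or 10.8%, against 7.03% on the rest of 4A, 8.37% at the group 5 ends, 8.77% at the group 7 starts and 8.13% in the whole list. The share of distal 4A was the highest of the 42 windows, in which the others ran from 6.77 to 10.7%. Along the stretch it was between 6.47% and 12.2% up to 710 Mb and then 15.1%, 16.9%, 18.3% and 23.7% in the successive bins.

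Background values moved in both directions at the tip. The lowest background in the list, 0.621 tags, stood behind 22.0% of the members, against 21.4% of the peaks on the rest of 4A and 22.2% of the list. It was at 30.9% of the members from 730 to 740 Mb and at 28.9% of those beyond. The tip of 5A had more, with 41.1% in its last full bin and 35.9% beyond. The highest full bins at the ends of 5B and 5D and at the group 7 starts had 27.7%, 26.4% and 28.5%. A background above 2 tags was found for 8.79% of the members, against 6.58% on the rest of 4A, and for 16.8% of those from 730 to 740 Mb.

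The share of strong peaks was also counted within classes of local background, a value that itself enters the fold enrichment. At the lowest background 2.15% of the members were strong (95% interval 1.43 to 3.20%), against 1.17% on the rest of 4A (0.887 to 1.54%). Between that and 1 tag it was 5.45% (4.39 to 6.75%) against 3.76% (3.29 to 4.28%), and from 1 to 2 tags 4.77% (3.91 to 5.81%) against 2.68% (2.36 to 3.04%). Above 2 tags it was 3.73% of the 429 members (2.31 to 5.97%) against 1.14% (0.692 to 1.87%). The intervals overlapped in the lowest class and were apart in the other 3. Against the group 5 ends and the group 7 starts the intervals were apart from 1 to 2 tags alone, where these windows had 3.19% (2.77 to 3.67%) and 3.39% (2.96 to 3.87%). At the lowest background distal 4A, with its 2.15%, was below the 2.22% of the group 5 ends and above the 1.60% of the group 7 starts. Up to 1 tag the group 5 ends and the group 7 starts had 4.38% and 4.37%, and above 2 tags 2.51% and 2.79%.

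**Figure D4:**
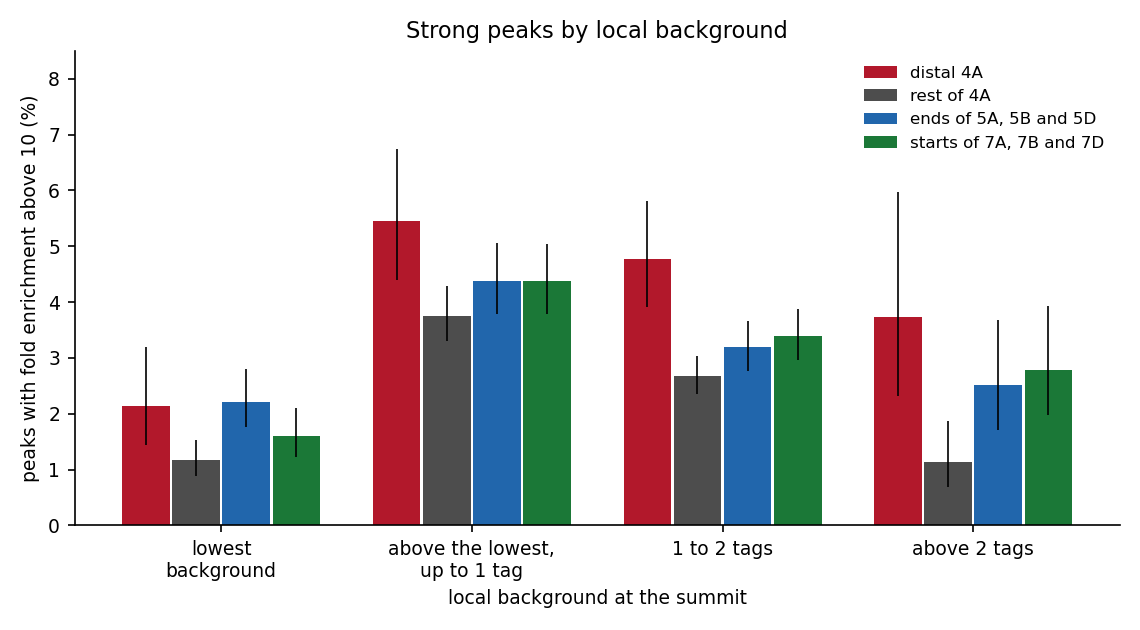
Percent of peaks with a fold enrichment above 10 in classes of local background at the summit (tags), for distal 4A (red), the rest of 4A (grey), the ends of 5A, 5B and 5D (blue) and the starts of 7A, 7B and 7D (green), with 95% Wilson intervals for counting error as bars. From 1 to 2 tags distal 4A stands at 4.77% against 2.68% for the rest of 4A.

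Peak width separated the regions less than strength did. The median width was 478 bp in distal 4A (quartiles 319 and 666 bp), against 476 bp on the rest of 4A (325 and 654 bp), 483 bp at the group 5 ends and 477 bp at the group 7 starts. The differences of 1.5, -5.5 and 0.5 bp had intervals of -9.24 to 11.8, -16.2 to 5.74 and -10.7 to 11.2 bp. Within the stretch the median width of the bins ran from 446 bp in the last bin to 523 bp at 610 to 620 Mb. A width of 1 kb or more was found for 201 members, or 4.12%, beside 3.8% of the whole list, and most often at 690 to 700 Mb, with 6.65%. The peaks together covered 1.75% of distal 4A, against 1.71% of the rest of 4A, and 1.26% of the stretch from 710 Mb on.

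The strong members were wider than the others, as strong peaks were on the rest of 4A. Their median width was 578 bp (quartiles 414 and 702 bp), against 474 bp (315 and 664 bp) for the 4672 other members. On the rest of 4A the medians were 604 bp for strong peaks and 473 bp for the others. Their median pileup was 22 tags, the lowest 16, against a median of 12 tags for the others, which follows from the choice by fold enrichment. Of the strong members 10, or 4.76%, exceeded a fold enrichment of 15, against 17 of the 512 strong peaks on the rest of 4A, or 3.32%. Another summit of chromosome 4A lay within 2 kb of 10 strong members, or 4.76%, against 390 of the other members, or 8.35%. On the rest of 4A it was 30 strong peaks, or 5.86%, against 8.08% of the others.

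The highest fold enrichment in distal 4A was 26.1, at a peak of 354 bp on chromosome 4A from 686716572 to 686716925 with 76 tags at its summit over a background of 1.95 tags. It ranked 44 in the whole list. No other summit lay within 38.2 kb of it, and the 9 other peaks within 100 kb reached a fold enrichment of at most 8.99. It was thus the only strong peak of its neighbourhood.

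The second, at 23.8, lay from 604834213 to 604834651 and held 276 tags at its summit, the highest pileup of all 467343 peaks, over a background of 10.6 tags. Its −log10 p-value of 278.1 was the second highest in the list. Its nearest neighbour lay 2.64 kb away, and of the 10 other peaks within 100 kb 1 was strong, with a fold enrichment of 13.4. By fold enrichment, which sets the tags against that background, it ranked 71.

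The remaining members among the highest 5 were more modest in tags. The peak from 735379857 to 735380207 had a fold enrichment of 18.6 with 36 tags and lay in the sparse tip, with 2 other peaks within 100 kb and the nearest 75.6 kb away. The peak from 675155236 to 675155554 had 18.0 with 30 tags. The peak from 642966182 to 642967292, 1111 bp wide, had 16.9 with 51 tags. None of the 3 had another strong peak within 100 kb. Genes near these peaks were not analysed here.

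The widest members were not the strongest. The widest, 1892 bp from 678462409 to 678464300, had a fold enrichment of 5.51 with 21 tags. The next, 1761 bp from 617490144 to 617491904, had 9.87 with 33 tags, and the third, 1603 bp from 727205451 to 727207053, had 6.46 with 52 tags over a background of 7.20 tags. Each therefore failed the limit of 10, the third at a pileup above that of 3 of the highest 5 members.

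Summits in distal 4A were close together where peaks were dense and far apart at the tip. The median distance between neighbouring summits was 19.0 kb (19036 bp), against 21.1 kb (21082 bp) on the rest of 4A and 19.3 to 21.3 kb in the windows of groups 5 and 7. Neighbours within 2 kb made up 201 of 4881 pairs, or 4.12% (95% Wilson interval 3.60 to 4.71%), against 4.05% (3.79 to 4.33%) on the rest of 4A. The windows of groups 5 and 7 ran from 3.51% at the start of 7D to 4.44% at the start of 7A. There were 179 pairs at 2 to 5 kb and 595 at 5 to 8 kb, against 560 and 1983 on the rest of 4A. Each window of groups 5 and 7 likewise had fewer pairs at 2 to 5 kb than at 5 to 8 kb. The shortage at 2 to 5 kb was thus not particular to distal 4A, and what made it was not tested.

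Long stretches without a peak were frequent. Distal 4A held 32 stretches of 200 kb or more, or 22.1 per 100 Mb, against 23 or 3.83 per 100 Mb on the rest of 4A. The windows of groups 5 and 7 held 8 to 32, with the most at the end of 5B. Among the 42 windows at chromosome ends distal 4A ranked 5, and the other 41 held 4 to 65 with a median of 17. The longest in distal 4A ran 748.7 kb from 734288923 to 735037625, the next 650.1 kb from 714541425 to 715191516 and the third 453.1 kb from 732970943 to 733424027, all in the tip. The longest on the rest of 4A was 466.5 kb, and that at the end of 5B was 2223 kb. A further stretch of 701.5 kb without a peak spanned the 600 Mb limit itself, from the last peak end before it at 599895343 to the first member at 600596806, so that 597 kb of distal 4A lay before its first peak.

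At the limit, the peaks just outside had widths of 467 and 591 bp and fold enrichments of 5.55 and 8.32, and those just inside 190 and 215 bp and 6.79 and 5.55. In 1 Mb bins the distal stretch ran from 6 peaks at 728 to 729 Mb to 51 at 687 to 688 Mb, with a median of 36 (quartiles 30 and 40), against 4 to 51 with a median of 33 (29 and 37) on the rest of 4A. Under 20 peaks were found in 15 of its 1 Mb bins, or 10.4%, against 9 of 600, or 1.5%. Other chromosome ends were not counted in 1 Mb bins. The variance of the bin counts was 2.74 times their mean in distal 4A and 1.24 times on the rest of 4A. Counts thus varied more between bins than the Poisson intervals of the densities allow for, most of all in distal 4A. Strong peaks were absent from 29.2% of the bins of distal 4A and from 42.2% on the rest of 4A. The most in a bin was 5 in distal 4A, in 4 of its bins, against 6 on the rest of 4A, in 1 bin at 438 to 439 Mb.

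**Figure D5:**
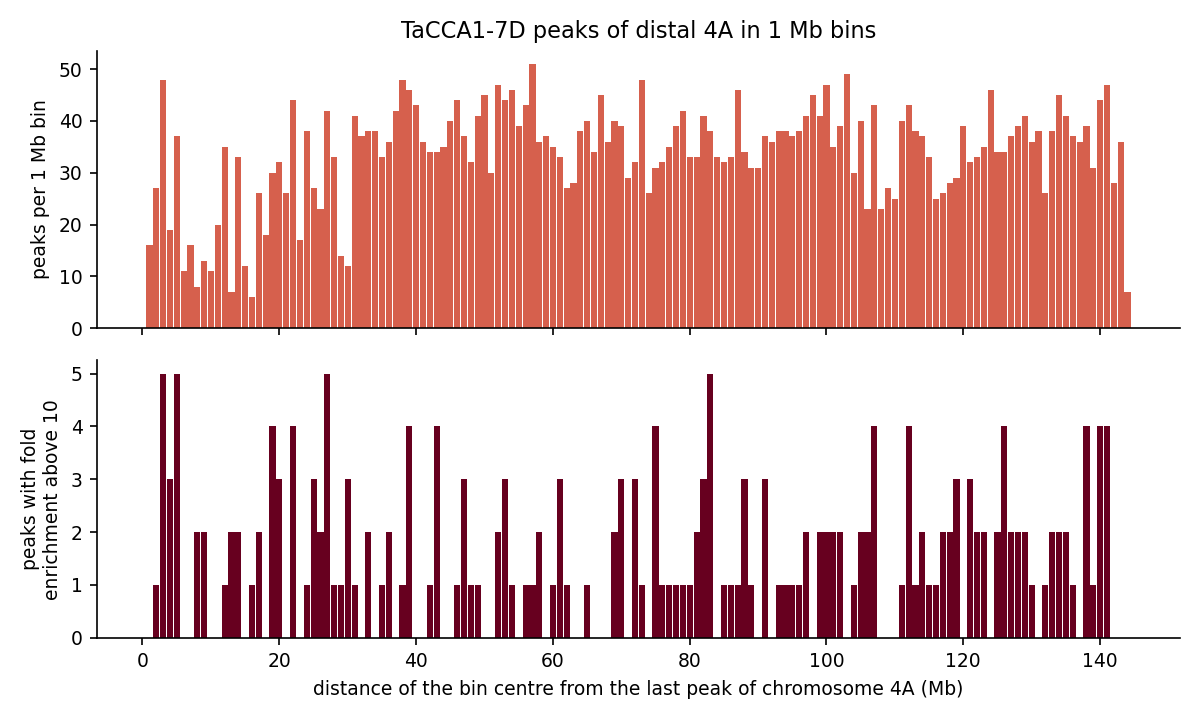
Number of peaks (top) and number of peaks with a fold enrichment above 10 (bottom) in 1 Mb bins of distal 4A, against the distance of the bin centre from the last peak of the chromosome in Mb. Bin counts reach 51 peaks in the dense part and drop to 6 in the tip, while bins with 5 strong peaks occur in both.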

How the data were processed

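DAP-seq was performed by the authors with MBP-TaCCA1-7D on sonicated Fielder DNA. Per the submitters' notes, Trimmomatic, Bowtie2 2.3.4, SAMtools 1.9, Picard, MACS2 and bedtools 2.29.0 were used. The authors aligned reads to the Ensembl wheat genome, kept those with a mapping quality above 10, removed duplicates and filtered the peaks for an FDR below 1e-5 and an enrichment above 5-fold. The control and any pooling of replicates are not given in the sources used here. The deposited list gives each peak's position, a score (10 times the −log10 q-value), the summit, the fold enrichment (a ratio) and its significance as −log10 of the p-value and of the q-value. Library depths are not in the list, and the pileup at a summit is the depth behind each value. The input libraries entered no comparison.

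A peak was placed by its start. Pileup and background were solved from fold enrichment and p-value with a pseudocount of 1, with a misfit under 0.0001 for 100% of members, and the method was tested on simulated data. Densities have exact Poisson intervals, density ratios exact binomial intervals, shares Wilson intervals, share differences Newcombe intervals, and medians order-statistic intervals combined by quadrature (95%). Members, regions and measures were chosen with earlier results of these data known. Single items were the 5 members of highest fold enrichment, the 3 widest, the 3 longest stretches without a peak, the densest and sparsest 1 Mb bin and every 10 Mb bin. Alternatives were stricter filters, other limits, windows and bins. Python 3.11.15, numpy 2.4.6, pandas 2.3.3, scipy 1.17.1 and matplotlib 3.10.9 were used. No gene is placed, since the gene table used is of a different assembly.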

Additional observations from a re-analysis of the deposited data

How the results depend on the processing

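Of 88 values recomputed under alternatives, 61 stayed within the interval of the reported value (for the number of peaks, within 1.5 times) and 27 moved. No difference or ratio whose interval excluded equality changed direction. Some density ratios came to exclude equality, as given below, and some intervals came to include it. These were the differences in median fold enrichment to both groups above a fold enrichment of 10, to the rest of 4A (-0.0098 to 0.13) and the group 5 ends (-0.028 to 0.13) with an FDR below 1e-10, and to both groups up to 710 Mb, the strong shares against both groups up to 710 Mb, and the density ratio to the group 5 ends from 620 Mb (0.995 to 1.07). Restricting the list to a fold enrichment above 10 left 210 peaks, and the density ratio to the rest of 4A, the group 5 ends and the group 7 starts was 1.70, 1.37 and 1.33, the width difference to the rest of 4A was -26 bp, and the difference in median fold enrichment was 0.31 to the rest of 4A and 0.0104 to the group 7 starts. With an FDR below 1e-10 they were 1124 peaks, 1.26, 1.14 and 1.09, -14 bp, and 0.0664 to the rest of 4A. Ending distal 4A at 710 Mb, an alternative chosen after seeing the data, gave density ratios of 1.1, 1.13 and 1.08. The windows of groups 5 and 7 kept their full length there. Under these settings the intervals of the density ratios to the rest of 4A and the group 7 starts, which had included 1, excluded it. Their lower ends were 1.44 and 1.12 above a fold enrichment of 10, 1.17 and 1.02 with the stricter FDR, and 1.06 and 1.04 up to 710 Mb. The strong share exceeded the rest of 4A, the group 5 ends and the group 7 starts by 3.60, 1.76 and 2.07 percentage points with a fold enrichment above 8. With a pileup of at least 20 tags, which is solved from the same fold enrichment, it did so by 3.78, 2.44 and 2.04. The ratio of the sparsest to the densest bin was 0.569 with bins of 20 Mb and 0.662 with a fold enrichment above 8. The share of close neighbours was 2.21% within 1 kb and 7.79% within 5 kb, by construction. Without the pseudocount the pileup was recovered for 0.102% of members. Other causes were not tested. The AATATC alternatives and leaving out a library were not run. No paired analysis was possible because the list does not separate the libraries. Few tags at a summit, 12 in the median, limit the fold enrichment of single peaks.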

Other observations

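The peaks carry running numbers that increase along each chromosome with gaps, and what made the gaps was not tested. Between its first and last member distal 4A had 10995 numbers, of which 44.4% stand in the list, against 48505 numbers and 41.2% on the rest of 4A. The share was 43.0%, 44.8% and 42.9% at the ends of 5A, 5B and 5D and 43.4%, 43.5% and 43.2% at the starts of 7A, 7B and 7D. There were 83.3 numbers per Mb from 600 to 710 Mb and 53.1 per Mb from 710 Mb on. In the bin from 730 to 740 Mb there were 40 numbers per Mb, and in the last bin 48.0 per Mb, of which 52.5% stand in the list.

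A stricter FDR below 1e-10 was met by 1124 members, or 23.0%, beside 19.9% of the whole list and 18.6% on the rest of 4A. It was met by 30.3% of the members from 710 Mb on and by 21.5% of those before.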
